A study of Homo sapiens with 6 samples.

Results

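The second Cmp302 array of the Twist line was compared with the first, gene by gene. The pair was chosen by sample title, the array titled 10 µM and the array titled 5 µM of the Twist line, and makes up 2 of the 6 arrays of the series. Both hold total RNA of HMLE cells, human mammary epithelial cells made immortal in culture, which had been infected with a pBabe-Twist retrovirus and then given the small molecule Cmp302. The labels give Cmp302 no chemical name. The other 4 arrays were the DMSO solvent control of the same line and the 10 µM, 5 µM and DMSO arrays of a control line, HMLE cells infected with a pBabe-shGFP retrovirus. Each group was 1 Affymetrix Human Genome U133 Plus 2.0 array, and the labels do not say whether a line was 1 clone or a pool. The labels disagree on what separates the pair: by the titles and the treatment protocol it was 10 µM against 5 µM, both for 6 h, whereas the source names and tags have 2 µM on both arrays, for 8 h against 4 h. The pair is called 10 µM and 5 µM by their titles, and dose and time cannot be told apart.

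Twist, a transcription factor, can push epithelial cells through the epithelial-mesenchymal transition (EMT), in which they lose their junctions and keratins and make matrix and mesenchymal proteins. Misfolded protein in the endoplasmic reticulum (ER) sets off the unfolded protein response, in which the transcription factors ATF4 and CHOP switch on stress genes and XBP1 and ATF6 switch on chaperones. NF-kB and the interferon regulatory factors are separate signalling outputs that switch on cytokines and antiviral genes.

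With 1 array on each side the difference has no replicate check and no test, and the number of arrays limits its precision. Values are log2 signals, and the step is the log2 signal at 10 µM minus that at 5 µM, so a step of 1 is a 2-fold higher signal at 10 µM. A gene was read by its brightest probe set and counted as measured if it lay above a floor of 3.71 log2 units on either array, which held for 11813 of 19775 genes. "Higher" and "lower" are used for steps past a fixed 2-fold or 1.5-fold threshold. A bulk signal cannot tell fewer cells of a kind from less RNA per cell.

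The labelled state of the cells was checked first. TWIST1 had 11.35 log2 units at 10 µM and 11.96 at 5 µM in the Twist line, against 10.48 and 10.51 on the matching control-line arrays. Its step was -0.61 by 1 probe set, which would miss a viral cDNA that lacks the probed part. CDH1 (E-cadherin) lay at the floor on both Twist-line arrays and had 13.03 and 13.10 log2 units in the control line, while the EMT transcription factor ZEB1 had 12.72 and 12.76, against 6.61 and 5.93. All 8 mesenchymal markers were above the floor on both Twist-line arrays, and 2 of 7 epithelial markers were. On the Cmp302 arrays of the control line 7 of the 8 and all 7 were, so the mesenchymal count hardly separates the lines. Of 8 markers of blood, endothelial and fat cells on the array, 6 lay at the floor on both Twist-line arrays. Those above it were PECAM1 (a step of 0.34, or -0.35 on its other probe set) and FABP4 (-0.38). RNA integrity and labelling were read from the GAPDH and ACTB control probe sets, as the 3' signal minus the middle one, which was 0.445 at 10 µM and 0.355 at 5 µM. On the Cmp302 arrays of the control line it was 0.835 and 0.45. Quality-matched steps, from which the part that this measure predicts for each gene was subtracted, are named where they end a call, as for TWIST1 (-0.58). Their slopes come from the control line, where the measure was 0.28 under DMSO and rose with the Cmp302 level. RNA quality and compound cannot be told apart there, so the subtraction can also take out a response to Cmp302. The DMSO array of the Twist line stood apart on this measure, with 0.955, and had 12.32 log2 units for GAPDH, against 13.66 at 5 µM. DMSO signals are printed beside the step as levels only, and the part of RNA quality in them was not tested.

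Most genes had nearly the same signal on both Twist-line arrays. The correlation across the 11813 measured genes, which are not independent replicates, was 0.994, and 94.1% of them lay within 1.5-fold. Of the measured genes 70 (0.593%) were higher and 60 (0.508%) were lower at 10 µM by 2-fold or more, and 378 (3.2%) and 324 (2.74%) by 1.5-fold or more. The same step in the control line, read on arrays not shared with this pair, put 5 of 11957 genes (0.0418%) higher and 11 (0.092%) lower by 2-fold. The SD of the step over genes was 0.30 in the Twist line and 0.24 in the control line. With the floor raised to the 65th percentile of signal the higher count in the Twist line became 39. By mean signal, 20 of the 130 genes past 2-fold lay above 9 log2 units, 69 between 6 and 9 and 41 below 6.

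**Figure D1:**
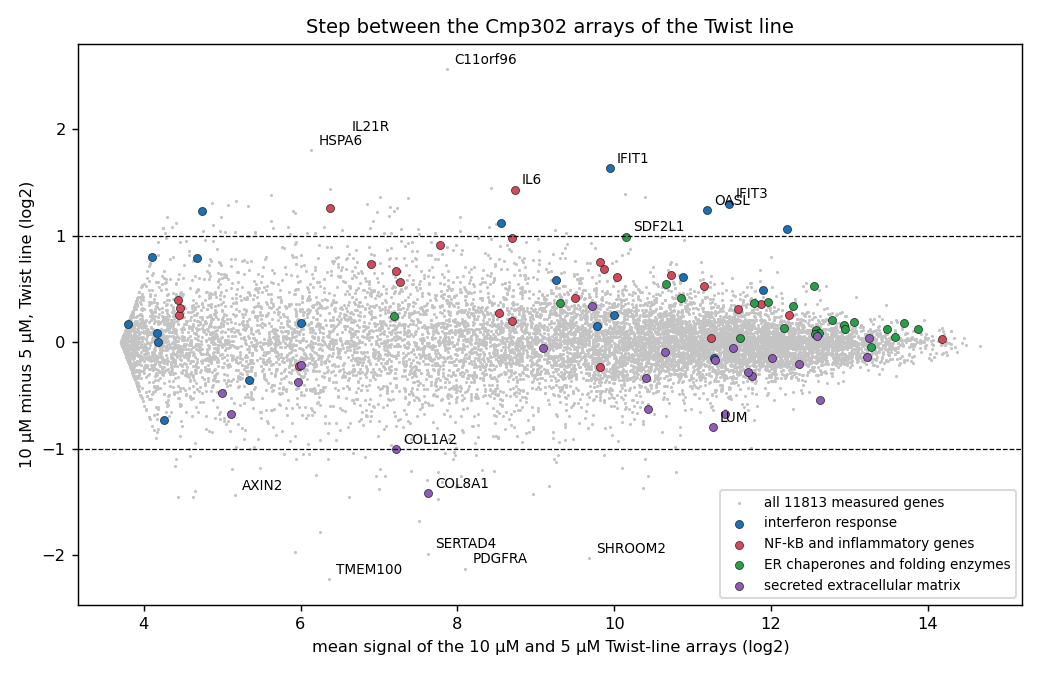
Step between the Twist-line arrays (log2 signal at 10 µM minus 5 µM) against the mean log2 signal of the pair, 1 point a gene, for 11813 measured genes. Coloured points are members of 4 gene lists and dashed lines mark 2-fold; interferon and NF-kB members lie mostly above 0 and matrix members mostly below.

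Where a gene had several probe sets above the floor, these were compared within the arrays, although probe sets of 1 array are not replicates. Among higher genes with several, 20 of 24 had all probe sets on the same side of 0, and among lower genes 19 of 20. All probe sets were past 1.5-fold in 12 of the 24 higher and 10 of the 20 lower genes. Over all 6042 genes with several probe sets, 50.8% had all of them on the same side of 0. The higher and lower genes were picked by the step of their brightest probe set, which favours agreement in sign. The contrast with 50.8% is therefore no check on the calls. The 1.5-fold count has no share over all genes beside it. The median SD between the probe sets of a gene was 0.16 log2 units.

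Antiviral and interferon-stimulated genes had the highest list median. Of 20 measured members 6 were higher by 2-fold and 9 by 1.5-fold (background 0.593% and 3.2%), 1 was lower by 1.5-fold, and the median step was 0.54, against -0.01 over all measured genes. IFIT1, whose protein binds foreign RNA and blocks its translation, had log2 signals of 6.42 under DMSO, 9.13 at 5 µM and 10.76 at 10 µM in the Twist line, a step of 1.63 or 3.10-fold. Its control-line signals were 9.78, 9.84 and 9.91, so the Twist-line signal lay below the control line at 5 µM and above it at 10 µM.

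The related genes IFIT3 and IFIT2 had steps in the same direction. IFIT3 had 9.74, 10.81 and 12.11 log2 units on the 3 Twist-line arrays, a step of 1.30, and its other probe set gave 1.39. IFIT2 had 8.17, 11.68 and 12.74, a step of 1.06. OASL, an interferon-inducible relative of the oligoadenylate synthetases, had 6.41, 10.56 and 11.80, a step of 1.24, or 1.80 on its other probe set. For these genes the 10 µM array was the highest of the 6 arrays.

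IFIH1, which encodes the RNA sensor MDA5, had another course, with 8.46 under DMSO, 8.00 at 5 µM and 9.12 at 10 µM, a step of 1.12, or 0.42 on its other probe set. HERC5, encoding the ligase that attaches ISG15, had 5.36 at 10 µM and 4.13 at 5 µM, a step of 1.23, and was at the floor under DMSO. The ubiquitin-like modifier gene ISG15 had a step of 0.58 and RIGI, another RNA sensor gene, one of 0.49. RSAD2, an antiviral enzyme gene at the floor at 5 µM, was higher by at least 0.80. Not all members had such steps. MX1, a GTPase gene that is a common marker of interferon action, had a step of 0.00, IRF9 one of -0.36 and IFI44L one of -0.73. The interferon genes IFNB1 and IFNL1 were at the floor on both arrays. In the control line 17 members were measured, with a median step of -0.10 and 0 past 1.5-fold in either direction.

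The promoters of the higher genes are shown because several of the antiviral genes among them hold the same short motif. Sequences are RefSeq's for GRCh38.p14, the 250 bases before the annotated start of each gene, read 5′ to 3′ on the gene's strand. A promoter was at hand for 50 of the 70 higher genes, 43 of the 60 lower genes and 9691 measured genes. OASL, IFIT2 and RELB were not matched. The pattern searched for the interferon-stimulated response element, on both strands, was GAAA, any 2 bases and GAAA. This was found in 6 of the 50 (12%), in 1 of the 43 (2.33%) and in 2.27% of all measured genes with a promoter. The 6 were IFIT1, IFIT3, HERC5, IFIH1, PLAC8L1 and the zinc finger gene ZNF583. At the 1.5-fold threshold it was found in 3.89% of 283 higher and 2.55% of 235 lower genes. A match is a description of letters and not a site shown to be used. In the promoters below capitals mark each match. They are those of IFIT1 at chr10:89392373-89392622 (+ strand), with matches at -116 to -107 and -103 to -94 from the start, of IFIT3 at chr10:89327747-89327996 (+ strand), at -156 to -147 and -122 to -113, and of IFIH1 at chr2:162318685-162318934 (- strand). IFIH1 has matches at -159 to -150 and -153 to -144, which overlap, and at -21 to -12, and a match to the NF-kB pattern, GGG, any 3 bases and TTCC, at -76 to -67.
IFIT1: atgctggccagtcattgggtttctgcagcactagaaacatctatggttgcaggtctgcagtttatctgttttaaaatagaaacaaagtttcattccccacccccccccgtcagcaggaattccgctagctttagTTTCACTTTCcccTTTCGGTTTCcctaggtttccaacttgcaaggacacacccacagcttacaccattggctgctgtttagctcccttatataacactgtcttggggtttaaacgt
IFIT3: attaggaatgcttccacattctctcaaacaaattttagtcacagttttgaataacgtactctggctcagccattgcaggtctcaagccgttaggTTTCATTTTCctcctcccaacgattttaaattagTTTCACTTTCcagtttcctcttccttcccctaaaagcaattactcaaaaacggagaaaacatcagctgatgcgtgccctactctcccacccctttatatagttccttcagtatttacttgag
IFIH1: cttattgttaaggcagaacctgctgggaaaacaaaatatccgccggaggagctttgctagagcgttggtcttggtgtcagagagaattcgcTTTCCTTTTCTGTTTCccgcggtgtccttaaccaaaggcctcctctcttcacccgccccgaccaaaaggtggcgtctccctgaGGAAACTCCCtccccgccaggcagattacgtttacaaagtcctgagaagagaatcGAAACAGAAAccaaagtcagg

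Inflammatory genes, many of them targets of NF-kB, were the other list with many members higher. Of 25 measured, 2 were higher by 2-fold and 10 by 1.5-fold (background 0.593% and 3.2%), 0 were lower by either threshold, and 23 had a step above 0. The median step was 0.41, and in the control line it was -0.08. IL6, encoding the cytokine interleukin-6, had log2 signals of 4.08 under DMSO, 8.02 at 5 µM and 9.45 at 10 µM, a step of 1.43 or 2.70-fold. It was at the floor on both Cmp302 arrays of the control line.

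Genes of the NF-kB pathway itself were among the widest steps. RELB, a subunit of the non-canonical pathway, had 7.01 at 10 µM and 5.75 at 5 µM, a step of 1.26 that became 0.99 with the higher floor. NFKB2, which encodes its partner, had 9.19 and 8.21, a step of 0.98 (0.64 with the median over probe sets). The inhibitor genes NFKBIE, NFKBIA and TNFAIP3 had steps of 0.73, 0.61 and 0.63, and NFKB1 one of 0.41. These are genes that NF-kB itself switches on. SOD2, another known target, had a step of 0.03.

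Among the secreted and surface products, ICAM1, an adhesion molecule, had 10.20 at 10 µM and 9.45 at 5 µM, a step of 0.75, and its 3 probe sets ranged from 0.39 to 0.75. PTGS2, encoding cyclooxygenase 2, had a step of 0.91 in the Twist line and of -0.87 in the control line. The transcription factor gene IRF1 had a step of 0.69 and the chemokine gene CCL20 one of 0.67. The neutrophil chemokine genes of the list had steps of 0.53 for CXCL3, 0.36 for CXCL8, 0.25 for CXCL1 and 0.04 for CXCL2. CXCL6, a chemokine gene outside the list, had 0.59. CCL2 and the activation marker gene CD83 had steps of -0.23 and -0.24.

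The IL6 promoter, chr7:22726950-22727199 (+ strand), is shown for its match to the NF-kB pattern at -73 to -64. It was in 5 of the 50 promoters of the higher genes (10%), 1 of the 43 of the lower genes (2.33%) and 6.58% of all measured genes with a promoter, and at 1.5-fold in 8.13% of higher and 4.68% of lower genes. IL6, IFIH1 and ZNF70 were among the 5, and TNFAIP3, NFKBIA and CCL20 held it at the 1.5-fold threshold.
IL6: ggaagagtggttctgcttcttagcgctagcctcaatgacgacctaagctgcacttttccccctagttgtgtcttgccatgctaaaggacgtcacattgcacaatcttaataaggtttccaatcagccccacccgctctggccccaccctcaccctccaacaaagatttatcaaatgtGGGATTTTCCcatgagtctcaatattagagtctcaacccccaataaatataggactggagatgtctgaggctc

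**Figure D2:**
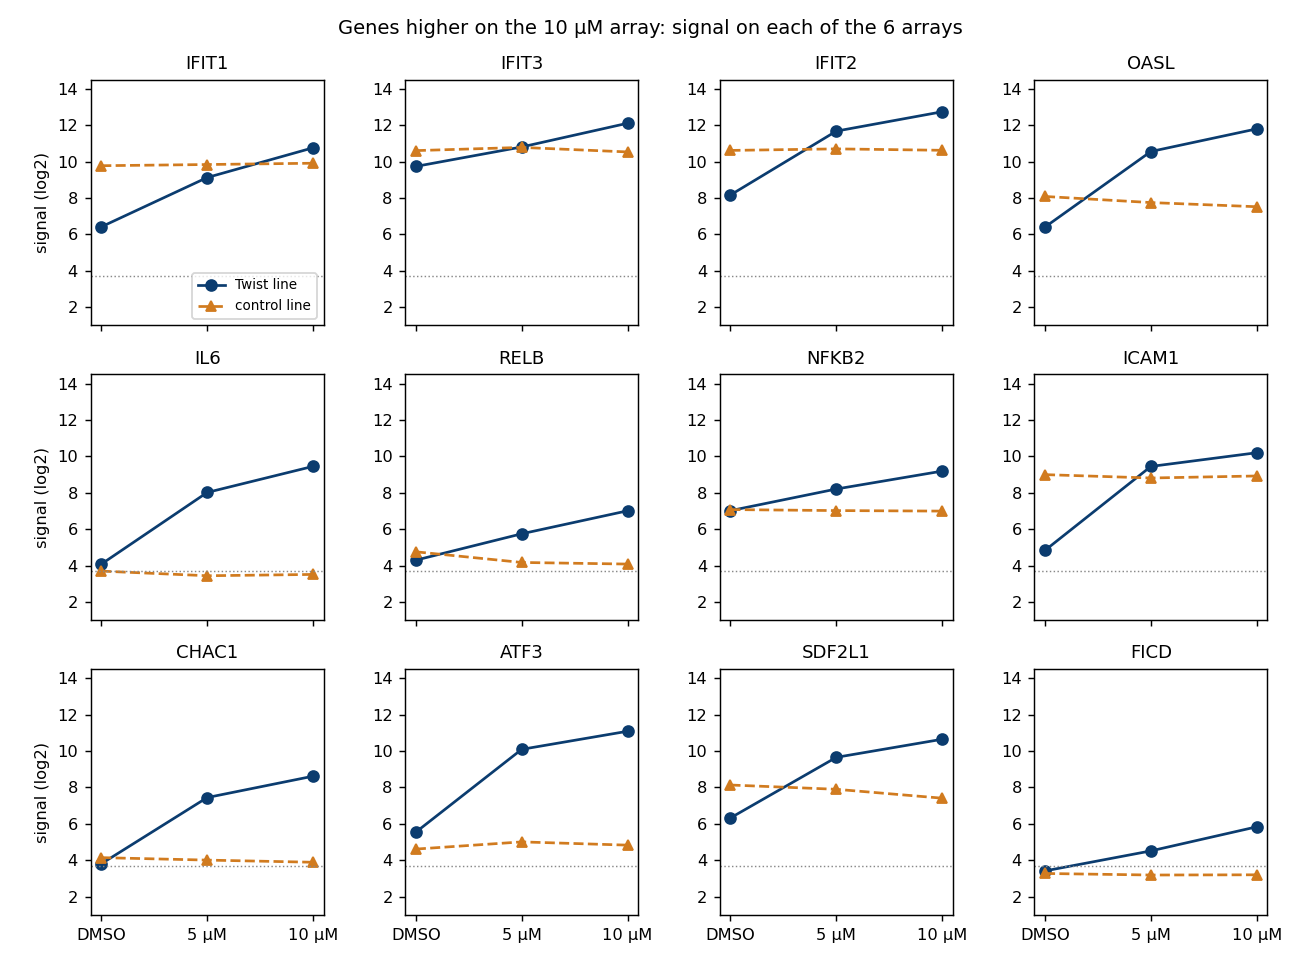
Log2 signal of 12 genes by Cmp302 level (DMSO, 5 µM, 10 µM) in the Twist line (circles) and control line (triangles), 1 array a point; the dotted line is the floor at 3.71. The 10 µM point of the Twist line is its highest in all 12, from 5.84 for FICD to 12.74 for IFIT2.

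The stress genes had a smaller median step than the antiviral and inflammatory lists. Of 22 measured targets of ATF4 and CHOP, 1 was higher by 2-fold and 5 by 1.5-fold (background 0.593% and 3.2%), and 0 were lower. A step above 0 was seen in 18 of them, against 49.5% of all measured genes, with a median of 0.23 (-0.04 in the control line). CHAC1, an enzyme that breaks down glutathione, had log2 signals of 3.81 under DMSO, 7.45 at 5 µM and 8.62 at 10 µM, a step of 1.17. ATF3, a stress-induced transcription factor, had 5.55, 10.10 and 11.09, a step of 0.99 just under 2-fold, or 1.09 on its other probe set.

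DDIT3, which encodes CHOP, had 6.16, 11.44 and 11.96, so that its step of 0.52 followed a difference of 5.28 between 5 µM and DMSO. Both differences share the 5 µM array, and the difference from DMSO also rests on the array that stood apart in RNA quality. TRIB3, a pseudokinase gene of the same pathway, had a step of 0.68, PPP1R15A, which helps to reverse eIF2-alpha phosphorylation, one of 0.60, and the stress cytokine gene GDF15 one of 0.79 that was 0.57 with the median over probe sets and 0.37 without probe sets whose suffix (_s_at or _x_at) marks possible cross-hybridisation. ATF4 itself had 13.78 at 10 µM and 13.76 at 5 µM, and ERO1A, an ER oxidase, had a step of -0.20. ATF4 is controlled largely at translation, which an array does not read.

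Amino acid supply and tRNA charging genes had a median step of 0.10, with 1 of 25 (4%) higher by 1.5-fold, near the 3.2% of all measured genes. This was the neutral amino acid transporter gene SLC1A4 (0.68), and SLC3A2, a transporter subunit, followed with 0.58. The tRNA synthetase genes WARS1 and AARS1 had steps of 0.45 and 0.35, and those for glycine and threonine, GARS1 and TARS1, had 0.11 and 0.00. The serine synthesis genes PSAT1 and PSPH had steps of 0.03 and -0.03.

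ER chaperones and folding enzymes had small steps that were nearly all above 0. Of 23 measured 22 had a step above 0, against 49.5% of all measured genes, with a median of 0.18, while 1 was past 1.5-fold. In the control line 7 of 23 had a step above 0 and the median was -0.11. SDF2L1, a partner of BiP, had 10.65 at 10 µM and 9.66 at 5 µM, a step of 0.99. The BiP co-chaperone gene DNAJB11 had a step of 0.53, HYOU1 one of 0.38 and CRELD2 one of 0.37. HSPA5, which encodes BiP, had 13.94 and 13.82, a step of 0.12, and 0.53 on its other probe set. CANX and PDIA6 had steps of 0.05 and -0.05.

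Among sensors and degradation genes of the ER, 1 of 19 was higher by 2-fold and 3 by 1.5-fold (background 0.593% and 3.2%), with a median of 0.16. FICD, the enzyme that adds AMP to BiP, had 5.84 at 10 µM and 4.52 at 5 µM, a step of 1.32, and lay at the floor under DMSO and in the control line. ERN1, encoding the sensor IRE1, had a step of 0.87 that became 0.26 with the median over its probe sets. SELENOS, a selenoprotein of the degradation complex, had 0.66, whereas HERPUD1 had 0.19 (0.82 on its other probe set), XBP1 0.01 and the mannosidase-like gene EDEM3 -0.38. The array does not separate spliced from unspliced XBP1. The ER translocation and trafficking list had a median of -0.04, with the signal peptidase subunit SEC11C at 0.75.

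The FICD promoter, chr12:108515027-108515276 (+ strand), holds the ER stress response element, CCAAT, any 9 bases and CCACG, at -154 to -136, and the CHAC1 promoter, chr15:40953221-40953470 (+ strand), holds the composite site of C/EBP and ATF factors, TGATGNAA, at -209 to -202. The first was in 1 of the 50 promoters of higher genes (2%) and in 0.134% of all measured genes with a promoter. The second was in 3 of the 50 (6%), CHAC1, IL21R and FUT1, in 0 of the 43, and in 1.43% of all measured. At the 1.5-fold threshold it was in 9 of 283 higher (3.18%) and 5 of 235 lower genes (2.13%), and the first was in 1 and 0.
FICD: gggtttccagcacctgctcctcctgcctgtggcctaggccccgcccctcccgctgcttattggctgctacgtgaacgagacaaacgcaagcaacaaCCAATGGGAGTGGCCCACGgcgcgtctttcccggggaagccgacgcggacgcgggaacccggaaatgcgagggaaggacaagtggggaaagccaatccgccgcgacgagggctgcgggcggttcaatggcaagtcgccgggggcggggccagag
CHAC1: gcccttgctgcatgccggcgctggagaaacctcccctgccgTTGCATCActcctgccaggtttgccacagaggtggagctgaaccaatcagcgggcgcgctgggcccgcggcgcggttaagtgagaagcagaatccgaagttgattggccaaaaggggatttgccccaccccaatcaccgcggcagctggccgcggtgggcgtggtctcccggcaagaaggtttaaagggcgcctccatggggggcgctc

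Genes outside these lists led the ranking. C11orf96, a small gene of little known function, had log2 signals of 6.59 at 5 µM and 9.15 at 10 µM, a step of 2.56 or 5.91-fold that was the widest of all measured genes. It lay at the floor under DMSO and in the control line. It was 1.38 with the median over probe sets. IL21R, a cytokine receptor gene, had 7.52 at 10 µM and 5.59 at 5 µM, a step of 1.93, with 1.21 as the lowest of its 3 probe sets. HSPA6, a strictly inducible HSP70 gene, had 7.04 and 5.24, a step of 1.80, or 1.01 on its other probe set and 1.02 with the higher floor. Its promoter was the only one among the 50 with a match to the heat shock element, GAA, TTC and GAA with any 2 bases between them, which was in 0.320% of measured genes with a promoter and, at 1.5-fold, in 1 of 283 higher and 1 of 235 lower genes.

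The cytosolic heat shock list did not follow HSPA6. Its 17 measured members had a median of -0.02, although the small heat shock gene CRYAB (0.86), the HSP40 gene DNAJB1 (0.53) and the HSP70 cochaperone gene BAG3 (0.52) had the widest steps and HSP90AA1 had -0.06. Histone genes were mixed as well. H2AC6 had 10.83 at 10 µM and 9.44 at 5 µM, a step of 1.39, and H2BC21 and H2AC8 had 0.68 and 0.62, whereas H2AX had -0.41, and the median of 12 was 0.14.

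Further genes among the 15 highest were the zinc finger gene ZNF70 (1.45), FAM228B (1.44), BEX2 (1.38), RASEF (1.36), the ankyrin gene ANK2 (1.35), the orphan nuclear receptor gene NR4A3 (1.31) and the flagellar gene SPEF2 (1.30). BEX2 became 0.30 with the higher floor, and RASEF 0.99 with the median over probe sets. Of genes at the floor at 5 µM, the highest were NEDD9, a scaffold of adhesion signalling, with a step of at least 1.08, SERPINI1 with at least 1.08 and DNAI4 with at least 1.18, which was 0.12 with the median over probe sets.

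**Figure D3:**
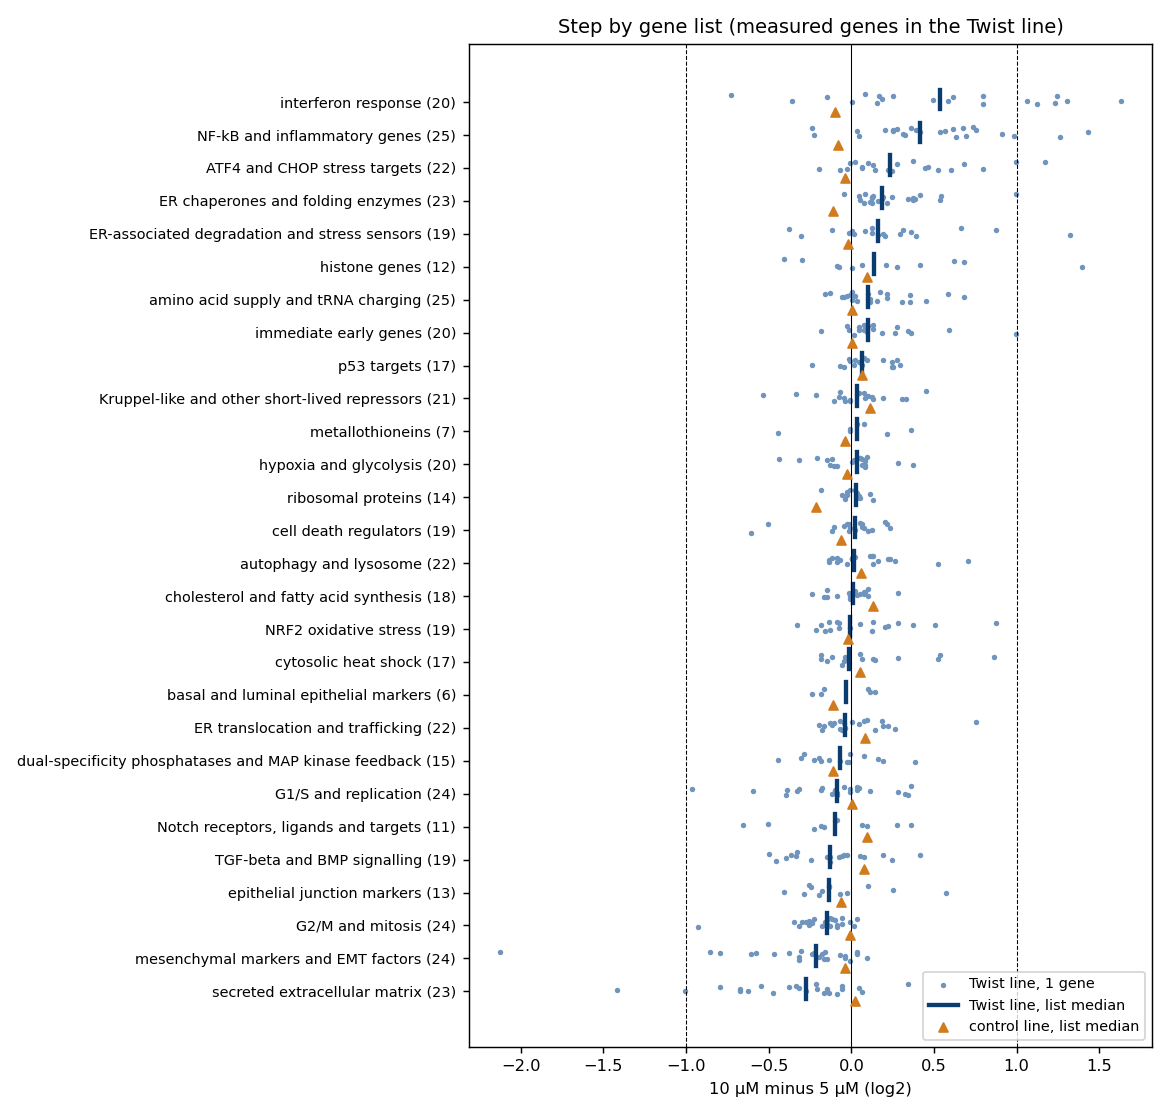
Step (log2 signal at 10 µM minus 5 µM) of each measured Twist-line gene in 28 lists (dots) with the list median in the Twist line (bars) and in the control line (triangles), the number measured in brackets, and dashed lines at 2-fold. Twist-line medians run from 0.54 for the interferon response to -0.28 for secreted extracellular matrix.

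Mesenchymal and matrix genes were on the other side of the step. Of 23 measured genes of secreted matrix 2 were lower by 2-fold and 6 by 1.5-fold (background 0.508% and 2.74%), 0 were higher by 1.5-fold, and 20 had a step below 0, with a median of -0.28. Of 24 measured mesenchymal genes 1 was lower by 2-fold and 4 by 1.5-fold, 0 were higher by 1.5-fold, and 21 had a step below 0, with a median of -0.21. Of all measured genes 50.5% had a step below 0 in the Twist line. In the control line, where fewer of the list genes were measured, the medians were 0.02 over 15 matrix genes and -0.04 over 19 mesenchymal genes. There 7 of the 15 and 13 of the 19 had a step below 0.

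PDGFRA, a receptor for platelet-derived growth factor found on mesenchymal cells, had log2 signals of 8.98 under DMSO, 9.17 at 5 µM and 7.04 at 10 µM, a step of -2.13. It was near its DMSO signal at 5 µM and 4.37-fold lower at 10 µM than at 5 µM. PDGFRB, its paralogue, had a step of -0.15, with 7.55 at 10 µM, 7.70 at 5 µM and 9.03 under DMSO. The matrix gene POSTN had a step of -0.86 and CDH11, a mesenchymal cadherin, one of -0.80, but these were -0.06 and -0.14 without probe sets marked for cross-hybridisation.

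The matrix genes with the widest steps were collagens and small proteoglycans. COL8A1, a short-chain collagen, had log2 signals of 10.32 under DMSO, 8.34 at 5 µM and 6.92 at 10 µM, a step of -1.42, which was -0.32 on its other probe set and with the median over probe sets. COL1A2 had 8.66, 7.72 and 6.71, a step of -1.01 (-0.65 with the median over probe sets), while COL1A1, the other chain of the same collagen, had -0.14 (-0.75 on its lowest probe set) and a control-line step of 2.48. LUM, encoding lumican, had 10.86 at 10 µM and 11.66 at 5 µM, a step of -0.80 (-0.49 without probe sets marked for cross-hybridisation). DCN, encoding decorin, had -0.63, COL3A1 -0.55, COL5A1 -0.68 and the matricellular gene THBS1 -0.68. TNC, encoding tenascin C, had the highest step of the list at 0.34, and FBLN1 had 0.04.

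Of the EMT factors and markers, TWIST1 had the step of -0.61 given above. By their brightest probe sets all 8 mesenchymal markers checked at the start had steps below 0, some of them small, where 50.5% of all measured genes had. VIM had -0.04, FN1 -0.07, CDH2 (N-cadherin) -0.16, SNAI2 -0.01 and ZEB1 -0.04, although the lowest probe sets of FN1 and ZEB1 had -0.98 and -0.58. The other probe set of CDH2 lay above 0, with 0.06. ZEB2 had -0.38, PRRX1 -0.32 and S100A4 -0.58. Control-line steps were -0.17 for VIM, -0.20 for CDH2, -0.35 for SPARC and -0.04 for FN1. ZEB2 had -0.01 there, TWIST1 -0.03 and ZEB1 0.68, and PRRX1 was at the floor. No measured epithelial junction gene was past 1.5-fold in either direction in the Twist line. The highest was the tight junction gene CLDN1, with 11.12 at 10 µM and 10.55 at 5 µM, a step of 0.57, and the list median over 13 was -0.14. Of the 13, 10 had a step below 0, so steps below 0 were not particular to mesenchymal genes. The 2 epithelial markers above the floor, DSP and KRT14, had -0.25 and -0.24. CDH1, EPCAM and ESRP1 were at the floor on both arrays.

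Outside the lists, TMEM100, a membrane protein gene downstream of BMP signalling, had the lowest step of all, -2.23, with 8.92 under DMSO, 7.48 at 5 µM and 5.25 at 10 µM, and was -1.45 with the higher floor. SHROOM2, a regulator of cell shape, had 11.04, 10.70 and 8.67, a step of -2.03. SERTAD4 had 6.63 at 10 µM and 8.62 at 5 µM, a step of -1.99, with its 4 probe sets from -2.28 to -0.33. FRY, a scaffold of NDR kinases, had a step of -1.97 that was -0.73 with the median over probe sets and -0.88 with the higher floor. The zinc finger gene ZNF43 had 7.14 under DMSO and at 5 µM and 5.35 at 10 µM, a step of -1.79 (-1.11 with the higher floor).

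Several of the 15 lowest encode signalling proteins. AXIN2 and CCN4, known targets of Wnt signalling, had steps of -1.44 and -1.38, the second -0.87 with the median over probe sets. AXIN2 had 7.12 under DMSO, 5.88 at 5 µM and 4.44 at 10 µM, and CCN4 had 7.71, 7.69 and 6.31. ANGPT1, a ligand of the endothelial receptor TIE2, had 5.89 at 10 µM and 7.35 at 5 µM, a step of -1.46. The others were the neuronal membrane gene SLITRK5 (-1.68, or -1.02 with the median over probe sets), the imprinted gene MEST (-1.48), LYPD3 (-1.46), the glycine-cleavage enzyme gene GLDC (-1.43) and the chromatin gene L3MBTL3 (-1.40). FRMD4B, at the floor at 10 µM, was lower by at least 2.74-fold.

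Further lower genes, named after their values were seen, were GAS1, a growth arrest and Hedgehog co-receptor gene (-1.35), RGS4, a brake on G protein signalling (-1.37), the growth factor genes FGF5 (-1.06) and HGF (-1.05), and the interleukin-6 receptor gene IL6R (-1.03). HGF had 5.59 at 10 µM and 6.64 at 5 µM, and its 4 probe sets ran from -1.05 to -0.14. Of the 60 lower genes 19 lay at the floor on both Cmp302 arrays of the control line, and of the 70 higher genes 13 did. The same share over all genes measured in the Twist line was not taken, so these counts have no background.

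**Figure D4:**
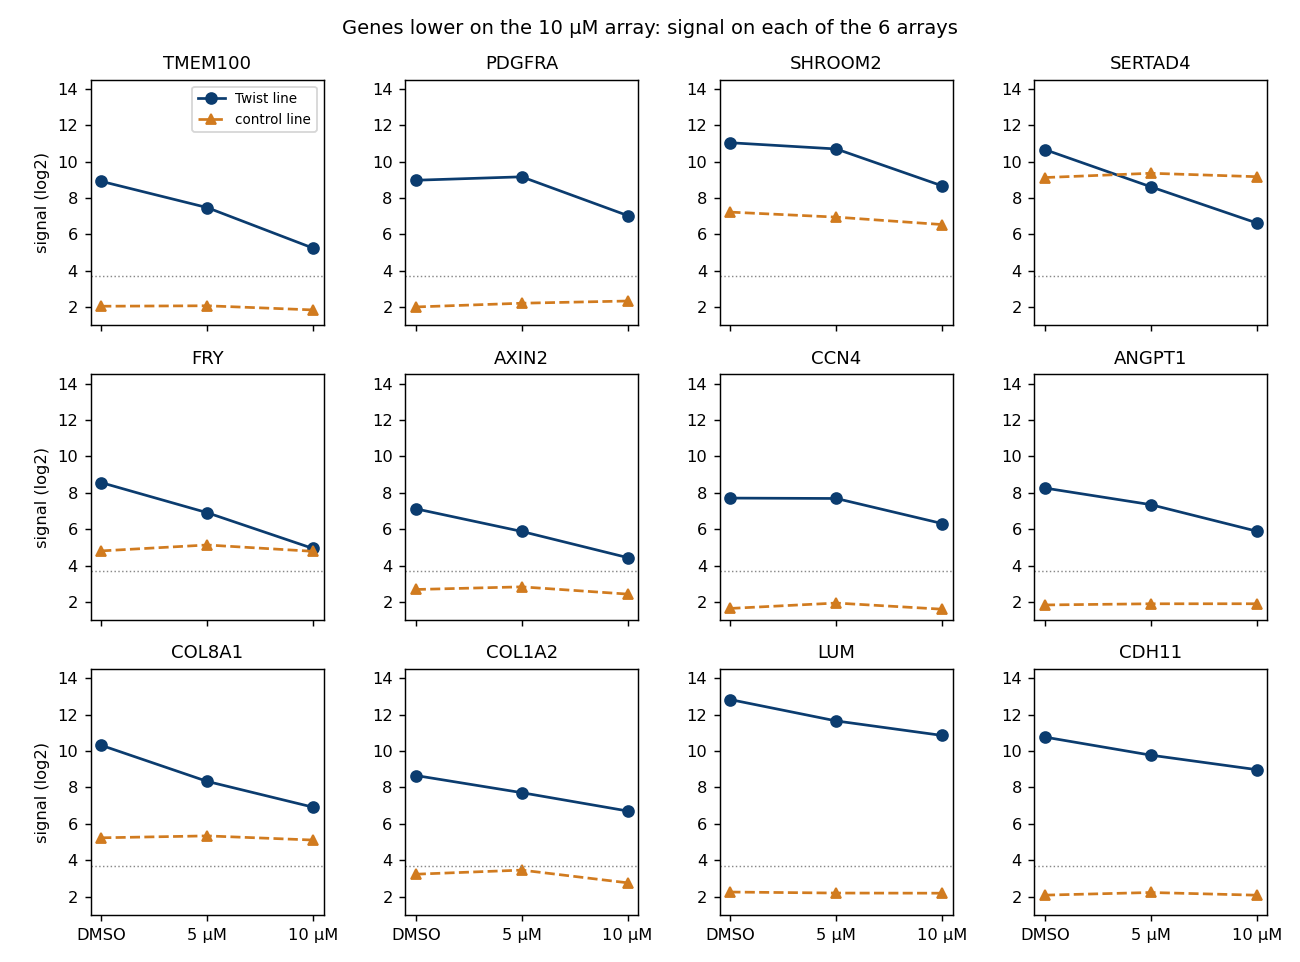
Log2 signal of 12 genes by Cmp302 level (DMSO, 5 µM, 10 µM) in the Twist line (circles) and control line (triangles), 1 array a point; the dotted line is the floor at 3.71. The 10 µM point of the Twist line is its lowest in all 12, from 4.44 for AXIN2 to 10.86 for LUM.

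Mitotic genes had small steps that were mostly below 0. Of 24 measured G2/M genes 22 had a step below 0, against 50.5% of all measured genes, with a median of -0.15 and 1 past 1.5-fold. That gene was KIF20A, a kinesin of cell division, with 9.58 at 10 µM and 10.51 at 5 µM. In the control line its step was -0.61, and 12 of the 24 had a step below 0. Among 24 genes of the G1/S transition and replication, the repressor gene E2F8 (-0.97) and the cyclin gene CCNE1 (-0.60) were lower by 1.5-fold, the second -0.26 with the median over probe sets and -0.54 when quality-matched, and the licensing factor CDC6 had 0.36. E2F8 had a step of -0.72 in the control line.

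The lists left had medians from -0.13 to 0.10, and some leaned to 1 side of 0. Of 20 immediate early genes 17 had a step above 0, against 49.5% of all measured genes. By 1.5-fold 2 of the 20 (10%) were higher, against 3.2%. Below 0 were 14 of 19 TGF-beta and BMP genes and 11 of 15 MAP kinase feedback genes, against 50.5%. Medians were 0.10 for immediate early genes, where ATF3 and FOSB (0.59, or 0.56 with quantile normalization) were past 1.5-fold, -0.01 for NRF2 targets, where OSGIN1 had 0.87 and HMOX1 0.50, and 0.01 for autophagy and lysosome, where the kinase gene ULK1 had 0.70. They were 0.06 for p53 targets, 0.02 for cell death regulators, with BCL2L1 at -0.61 (-0.40 with the median over probe sets), 0.03 for hypoxia and glycolysis, 0.01 for cholesterol synthesis, 0.03 for metallothioneins, 0.03 for Kruppel-like and other short-lived repressors and 0.03 for ribosomal proteins. Notch genes had -0.10, with the ligand DLL3 at -0.66 (-0.07 with the median over probe sets), MAP kinase feedback genes -0.07, basal and luminal markers -0.03, and TGF-beta and BMP genes -0.13, which was 0.073 with the median over probe sets. GAPDH and ACTB had steps of 0.02 and 0.01, and -0.42 and -0.05 in the control line.

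Whether the step was shared by the control line was asked next. Across the 10885 genes above the floor on all 4 Cmp302 arrays, the steps of the lines correlated at -0.04, a description over genes that share libraries. Of the 70 genes higher in the Twist line, 57 were measured in the control line, with a median step of -0.14 there and 0 higher by 1.5-fold, where 0.535% of all measured genes in the control line were. Of the 60 lower genes, 41 were measured, with a median step of -0.19 there and 4 lower by 1.5-fold, where 1.38% of all measured genes in the control line were. EEIG2 was among these 4, with steps of -1.25 in the Twist line and -0.94 in the control line. MYC had a step of 0.18 in the Twist line and of -1.01 in the control line. The 2 control-line arrays differed by 0.385 in the 3' minus middle signal, against 0.09 for the Twist-line pair. By 1.5-fold the control line had 64 genes higher and 165 lower, and 18 and 14 when quality-matched. That slope is fitted on the same control-line arrays, so the part of RNA quality in these control-line steps was not tested.

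A limma fit with line and level over the 4 Cmp302 arrays, in which the lines serve as the repeats, called 0 of 12345 genes (0%) higher and 0 (0%) lower at an adjusted p of 0.05, with 501 at an unadjusted p under 0.05. The lowest p-values were those of EEIG2, with a mean step of -1.09 ± 0.22 (SE, adjusted p = 0.799 by limma), KIF20A (-0.77 ± 0.16) and LPCAT4 (-0.96 ± 0.20). Each was lower at 10 µM in both lines. The mean step of EEIG2 was past 2-fold and was still not called. The 0 calls therefore do not show that no gene had a 2-fold step shared by both lines. The fit has 1 residual degree of freedom, and a gene with a step in 1 line only adds to its error. It says nothing on the Twist-line step alone.

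**Figure D5:**
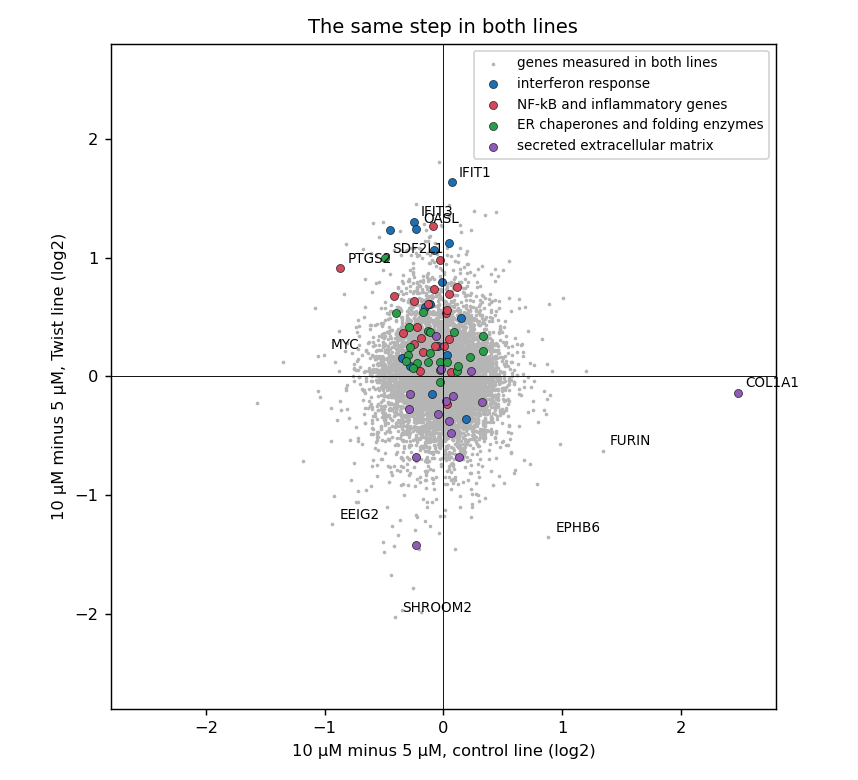
Step in the Twist line (vertical) against the same step in the control line (horizontal), log2 signal at 10 µM minus 5 µM, for genes measured in both lines, 1 point a gene. Interferon, NF-kB and ER chaperone members spread upward in the Twist line with control-line steps between -0.87 (PTGS2) and 0.33 (CALR).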

How the data were processed

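The series holds 6 Affymetrix U133 Plus 2.0 arrays of total RNA, with 1 sample in each group. The authors deposited log2 signals, a unit taken from the range of the values because the labels name none. The submitters' processing notes name GCOS 1.2, while background correction, summarisation and normalization are not given in the sources used here.

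Of 54675 probe sets 62 controls were left out, and 41091 had 1 gene symbol. Arrays were aligned by 1 additive offset each, chosen to bring the median difference from the average array to 0 among brighter probe sets (offsets from -0.03 to 0.01), and signals under the median of all values, 3.71, were set to that floor. A gene was its probe set of highest mean signal. The step was a difference between 2 arrays, and only the step shared by both lines was tested, with limma 3.58.1 in R 4.3.3 (signal trend, Benjamini-Hochberg) for genes that passed the floor on 2 or more of the 4 arrays, after a check on simulated data. In that check 100 of 100 genes with a step of 1 log2 unit and 100 of 100 with a step of 2 were called. There were 40 false calls among 12345 genes, a larger share of the calls made than the adjusted p threshold allows. The full recovery does not carry over to the real fit. There EEIG2, with a mean step of -1.09, was not called (adjusted p = 0.799 by limma). Each simulated step was the same in both lines, so the check does not cover a step in 1 line only.

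The pair, the 30 gene lists (636 symbols, 582 on the array) and the rules were chosen with earlier results of these data known. Genes named were the 15 highest and 15 lowest steps among genes whose probe sets share a sign, the 5 highest and lowest bounds, the 3 widest members of each list and 12 fixed genes. Other members and motifs were chosen after their values were seen. Of 9 markers of other cells, 8 were on the array. Alternatives were the deposited scaling, quantile normalization, floors at the 35th and 65th percentile, no floor, the median over probe sets, no probe sets marked for cross-hybridisation (suffix _s_at or _x_at), and a quality-matched step, with the part subtracted that the 3' minus middle signal predicts from its slope per gene in the control line.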

Additional observations from a re-analysis of the deposited data

Results flagged for a closer look

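PTGS2 had a step of 0.91 in the Twist line and of -0.87 in the control line, past 1.5-fold in opposite directions, and this difference between the lines was not tested. The same held for 14 of 10885 genes above the floor on all 4 Cmp302 arrays, 5 of them past 2-fold in the Twist line. These 5 were EPHB6 (-1.36 in the Twist line, 0.88 in the control line), ACTRT3 (1.29 and -0.59), DHRS2 (1.11 and -0.82), CLTRN (1.07 and -0.68) and KCNMB3 (1.04 and -0.61). With 1 array per group the differences between the lines have no error. The control-line pair also differed more in the 3' minus middle signal (0.385) than the Twist-line pair (0.09), and the part of this was not tested.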

How the results depend on the processing

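Over the 8 alternatives the Twist line had 39 to 76 genes higher and 42 to 63 lower by 2-fold, and 254 to 430 and 221 to 360 by 1.5-fold. The lowest count of higher genes, 39, came with the floor at the 65th percentile, under which fewer genes are measured. Medians ranged from 0.46 to 0.80 for the interferon list (0.80 without probe sets marked for cross-hybridisation), 0.36 to 0.55 for NF-kB genes, 0.17 to 0.34 for ER chaperones, 0.19 to 0.26 for ATF4 and CHOP targets, -0.37 to -0.17 for matrix, -0.22 to -0.15 for mesenchymal and -0.25 to -0.14 for G2/M genes, with no change of sign. The TGF-beta and BMP median became 0.073 with the median over probe sets, and the cause was not tested. In the control line the floor at the 65th percentile gave 3 genes higher and 7 lower by 2-fold and 40 higher by 1.5-fold, and the median over probe sets gave 1 higher by 2-fold. Quality-matched, the control line had 2 higher and 3 lower by 2-fold and 18 and 14 by 1.5-fold, and that slope is fitted on the same arrays. Of 959 values for named genes 65 moved by more than 0.16 log2 units, and 0 of those past 2-fold changed sign. The fit over both lines called 0 genes under each of its 9 alternatives. No paired analysis was possible because each group holds 1 array and no replicate numbers are shared, although the fit over both lines has line as a term and so compares the levels within each line.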
